A study of Homo sapiens with 4 samples.

Results

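The genes described here are 45 genes of the cell cycle and of DNA replication, chosen by symbol from the 57905 genes of the count table: the genes that license and copy DNA, the cyclins, kinases and checkpoint proteins that carry a cell through division, and the proteins of the centromere, spindle and cleavage furrow. All 45 were found, each on 1 entry, and all 45 were among the 13966 genes with a mean of at least 1 CPM (counts scaled by library size) over the 4 libraries. RNA was sequenced from A549, an established human lung adenocarcinoma line, in 4 conditions with 1 library each: a scramble control (sc), cells carrying a short hairpin RNA against DCBLD2 (shDCBLD2), cells carrying an empty vector (the vector control), and cells labelled DCBLD2 overexpression. DCBLD2 is a transmembrane receptor-like protein, and the comparisons ask how RNA levels differ when its level is changed. Per the methods, the hairpins and the DCBLD2 coding sequence were delivered by lentivirus to make stable lines, with the DCBLD2 vector carrying blasticidin resistance and the hairpin vector carrying puromycin resistance. For the sequenced cells the sources speak of transfection with the vectors, and whether all 4 libraries came from drug-selected lines, and which hairpin shDCBLD2 carries, is not given in the sources used here.

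Cells copy their DNA once per division. In G1 phase the MCM helicase is loaded on origins by CDC6 and CDT1, cyclin E with its kinase and the E2F factors then start S phase, and many of the genes needed are switched on together by E2F. Genes of mitosis are switched on later, by the MuvB proteins with B-MYB (encoded by MYBL2) and FOXM1, at promoters with elements called CHR and CCAAT, after the DREAM complex has kept them off in resting and early G1 cells. RNAs of both waves are low in resting cells and high in dividing ones, so that these genes are widely read together as a measure of proliferation in tumors. In RNA from a whole culture, fewer cells in a phase and less RNA per cell cannot be told apart.

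The libraries held between 16601633 and 21537283 counts. DCBLD2 itself had 504 CPM in sc, 197 in shDCBLD2, 434 in the vector control and 242 in the library labelled DCBLD2 overexpression. It was thus lower in shDCBLD2 than in sc, and it was also lower, not higher, in the library with the label DCBLD2 overexpression than in the vector control, with a log2 ratio of -0.84 (95% counting interval -0.90 to -0.79). This goes against that label, so this library is called by its label, OE, throughout. In addition, 66 genes had at least 50 counts in this library and at most 3 in each other library, against 0 such genes for each other library. All 10 markers of A549-like epithelial cells were counted in every library, with a summed level between 17088 and 26332 CPM. Of 8 fibroblast-like markers, 2 to 5 per library had 3 counts or fewer, and FAP was at 0 in all 4. Their summed level was highest in the library labelled OE at 74.7 CPM, against 34.7 to 55.1 in the others. COL1A1 had 32.7 to 63.1 CPM over the libraries. COL1A2, COL3A1 and POSTN had 67, 68 and 42 counts in the library labelled OE. Elsewhere COL1A2 had 0 to 17 counts, COL3A1 6 to 18 and POSTN 0. PDGFRB had 10 counts in the library labelled OE and 4 to 13 elsewhere. Of 8 blood-like markers, 6 or 7 per library had 3 counts or fewer, PTPRC was at 0 in all 4, and the summed level was at most 1.70 CPM. Since each condition has 1 library, no difference here has a replicate check and no test was made. Intervals are 95% Clopper-Pearson intervals and cover counting error only.

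Promoter sequences are shown first because the members share letters there. RefSeq gave a promoter on GRCh38.p14, from 250 bases before to 50 bases after the start, for 36 of the 45 genes. BIRC5, CCNE2, TPX2, TTK, FOXM1, MCM4, AURKA, UBE2C and MCM5 had none in the table used. Read on both strands, a CHR element, searched for only as TTTGAA or TTCGAA, was in 16 of the 36 promoters, or 44.4%. It was in 16.6% of 27305 promoters, taken 1 per gene symbol from the table and not limited to the genes past the filter. CCAAT was in 28 of the 36, or 77.8%, against 35.7%. An E2F element, spelled TTCCCGC, with TTGGCGC as a second spelling and TTCGCGC as a further one, was in 17 of the 36, or 47.2%, against 11.2%. The elements were spread unevenly over the roles. E2F letters were in 7 of the 8 matched promoters of the licensing and helicase genes and in 0 of the 5 matched promoters of the mitotic kinase and checkpoint genes, whereas CHR letters were in 1 of those 8 and 4 of those 5, and in 6 of the 8 matched promoters of the centromere and spindle genes. The mitotic cyclin group did not keep to this split, with E2F letters in 3 of its 5 promoters and CHR letters in 2 of the 5. A match is a description of the letters in this window, not a measured binding site. Other spellings were not searched for, so a promoter without a match is not shown to lack the element. The 150 bases before the start are printed below for 6 genes that recur in the results: MKI67, KIF23 and CCNB2, lower in the library labelled OE, CDC20, among the members furthest up in shDCBLD2, MCM6, the licensing gene with the lowest ratio, and CDC25A, the exception. Capitals mark CHR, CCAAT and E2F letters on either strand, so that ATTGG stands for a CCAAT read on the other strand.
MKI67, chr10:128126424-128126573, minus strand: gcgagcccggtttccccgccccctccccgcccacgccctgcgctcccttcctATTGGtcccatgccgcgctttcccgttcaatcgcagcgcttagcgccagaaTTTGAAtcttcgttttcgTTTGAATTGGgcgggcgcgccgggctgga
KIF23, chr15:69414199-69414348, plus strand: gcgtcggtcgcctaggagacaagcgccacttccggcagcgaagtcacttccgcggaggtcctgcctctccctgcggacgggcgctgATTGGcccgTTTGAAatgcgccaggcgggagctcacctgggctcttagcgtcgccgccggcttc
CCNB2, chr15:59104996-59105145, plus strand: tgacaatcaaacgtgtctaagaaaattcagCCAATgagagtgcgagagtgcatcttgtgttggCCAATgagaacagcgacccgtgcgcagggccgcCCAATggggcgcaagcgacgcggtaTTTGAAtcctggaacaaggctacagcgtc
CDC20, chr1:43358831-43358980, plus strand: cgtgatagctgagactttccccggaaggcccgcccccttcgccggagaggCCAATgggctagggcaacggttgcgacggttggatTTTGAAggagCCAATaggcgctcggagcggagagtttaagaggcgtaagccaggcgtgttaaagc
MCM6, chr2:135876444-135876593, minus strand: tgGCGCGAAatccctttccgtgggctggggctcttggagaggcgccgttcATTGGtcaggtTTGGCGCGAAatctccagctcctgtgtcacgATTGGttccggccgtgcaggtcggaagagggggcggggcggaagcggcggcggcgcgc
CDC25A, chr3:48188418-48188567, minus strand: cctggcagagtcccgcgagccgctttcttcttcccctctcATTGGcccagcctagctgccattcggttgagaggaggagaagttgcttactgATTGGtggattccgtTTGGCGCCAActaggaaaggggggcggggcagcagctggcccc
In these windows MKI67 has 2 CHR elements, the second of which overlaps a CCAAT, and CCNB2 has 3 CCAAT elements before its 1 CHR. MCM6 has 3 E2F elements, of which 2 overlap, and CDC25A has 2, on opposite strands of the same letters, and no CHR.

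Considered per library, the 45 genes took up 0.633% of all counts in sc, 0.752% in shDCBLD2, 0.566% in the vector control and 0.417% in the library labelled OE. On the TMM-scaled level their sum was 6185 CPM in sc, 7511 in shDCBLD2, 5775 in the vector control and 4190 in the library labelled OE. The order was thus shDCBLD2, sc, vector control and last the library labelled OE, and the counting intervals of the 4 sums did not overlap. The shDCBLD2 library was the highest of the 4 for 37 of the 45 genes, as it was for 33.1% of all genes past the filter, and the library labelled OE was the lowest for 37, as it was for 39.2% of all genes. Both held for 33 of the 45 (73.3%), against 23.8% of all genes. The exceptions at the top were few: MCM2, CDT1 and CDC25A were highest in the library labelled OE, CENPA and CDC25C in the vector control, and CENPE, CENPF and KIF11 in sc. Per kilobase of exon, on the deposited FPKM scale, the most abundant member was PCNA, the sliding clamp of the replication fork, with a mean of 234 FPKM over the 4 libraries, and the least abundant was CCNE2, a cyclin of S phase entry, with 0.528 FPKM.

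**Figure D1:**
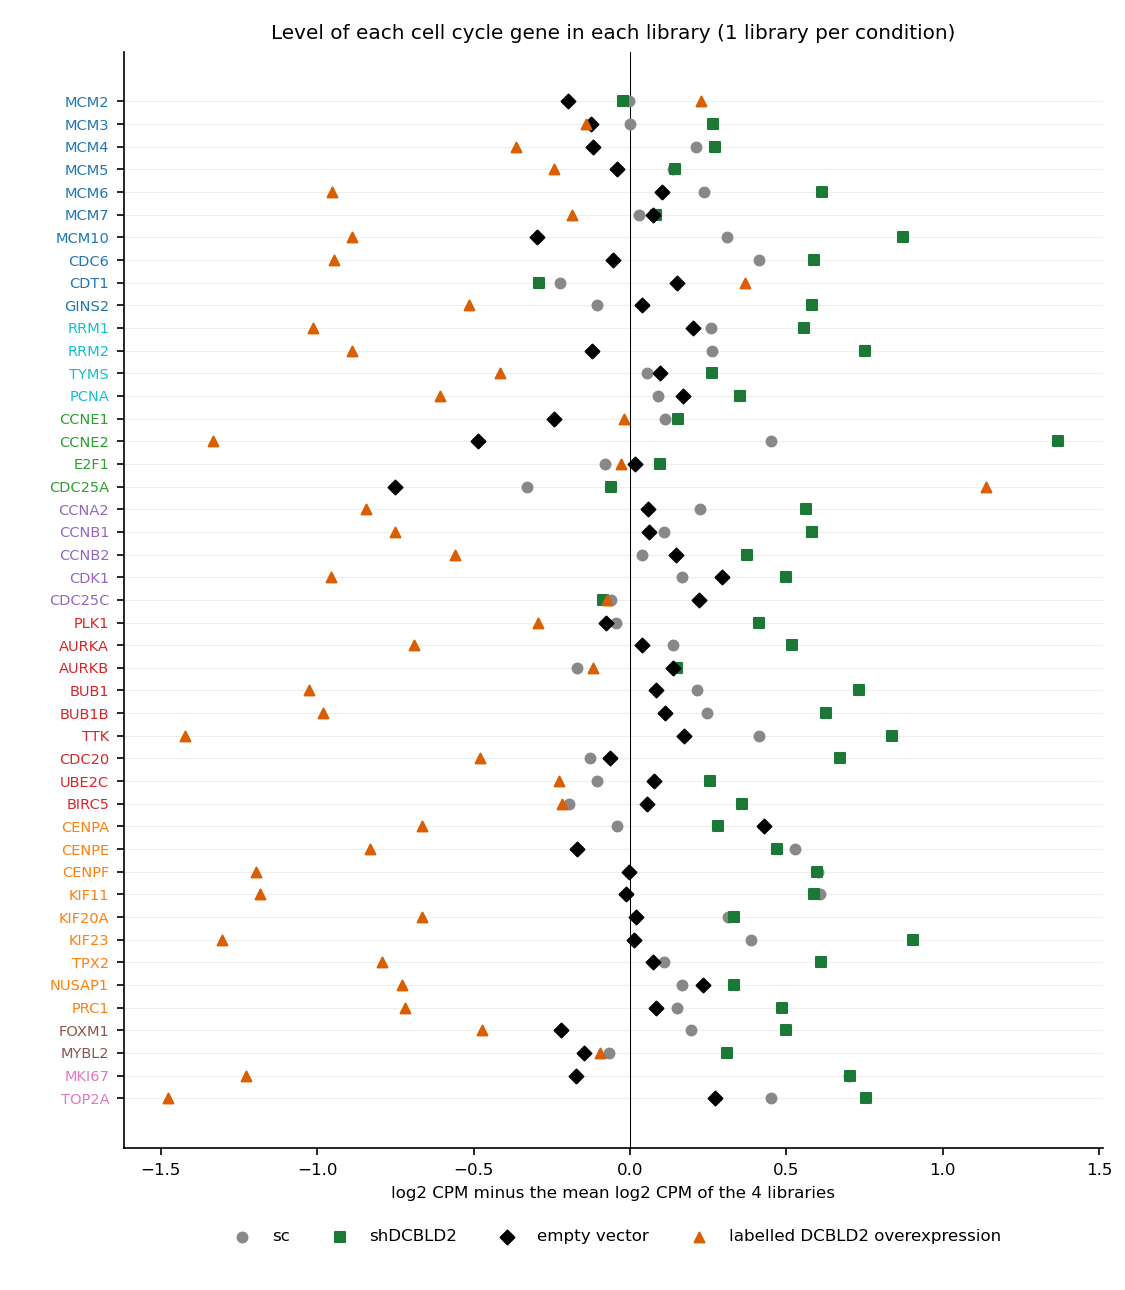
Level of each of the 45 cell cycle genes in each library, as log2 CPM minus the mean log2 CPM of the 4 libraries (horizontal axis), with 1 point per library and gene names coloured by role. The shDCBLD2 squares lie furthest right for 37 genes and the triangles of the library labelled OE furthest left for 37; CDC25A stands out with its triangle on the right.

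In the library labelled OE, 40 of the 45 genes were lower than in the vector control, and the median log2 ratio was -0.71, against -0.04 over all genes past the filter, of which 52.9% were lower. Genes of chromosome segregation and of mitotic entry were among those furthest down. Counted as at least 2-fold with an interval that excludes no change, 12 members were lower, against 5.35% of all genes, and 1 was higher, against 6.42% of all genes. At 1.5-fold, 25 were lower (17.8% of all genes) and 1 was higher (12.8%). With upper-quartile scaling, which moves the median of all genes to 0.08, 7 members were lower at 2-fold, against 3.47% of all genes. Unlike most members, the fibroblast-like markers, given above, had their highest sum in this library, at 74.7 CPM, of which COL1A1 gave 63.1. The genes counted only in this library are high there by the rule that chose them. The part of these genes and markers in the result was not tested.

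TOP2A, the topoisomerase that untangles sister DNA before division, had the lowest ratio. Its counts were 7166 in sc, 9748 in shDCBLD2, 5932 in the vector control and 1589 in the library labelled OE, or 366, 452, 323 and 96.3 CPM. It was 3.35-fold lower in the last library than in the vector control, a log2 ratio of -1.75 (-1.83 to -1.67), and the 3 other libraries lay far above it. MKI67, which encodes the proliferation marker Ki-67, a coat of mitotic chromosomes, had 280 CPM in sc, 281 in shDCBLD2, 153 in the vector control and 73.7 in the library labelled OE. The log2 ratio to the vector control was -1.05 (-1.15 to -0.96). The vector control library was itself well below sc for this gene, so that against sc the distance was larger.

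All 9 genes of the centromere, spindle and cytokinesis group were lower at 1.5-fold, and 4 of them at 2-fold, with a group median of -0.96. KIF23, a kinesin of the central spindle, had 76.7 CPM in sc, 110 in shDCBLD2, 59.1 in the vector control and 23.7 in the library labelled OE, a log2 ratio of -1.31 (-1.49 to -1.15). CENPF, a large kinetochore protein, was at -1.19 (-1.35 to -1.03), and KIF11, the kinesin that pushes the spindle poles apart, at -1.17 (-1.37 to -0.98). CENPA, the histone H3 variant that marks the centromere, had 873 counts in the vector control and 368 in the library labelled OE, a log2 ratio of -1.09 (-1.27 to -0.92). The group's highest ratio was that of CENPE, a kinetochore motor, at -0.65 (-1.03 to -0.30), so that the whole group lay below the median of all genes.

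The mitotic kinases, checkpoint proteins and partners of the anaphase-promoting complex split. All 9 were lower, with a median of -0.42, but 4 passed 1.5-fold and 3 passed 2-fold. TTK, the kinase that starts the spindle checkpoint, had 262 counts in sc, 388 in shDCBLD2, 208 in the vector control and 62 in the library labelled OE, a log2 ratio of -1.57 (-2.03 to -1.18). Its checkpoint partners BUB1 and BUB1B were at -1.11 and -1.09. In contrast, PLK1, a master kinase of mitosis, was at -0.22 (-0.28 to -0.15), AURKB, the kinase of the chromosomal passenger complex, at -0.26 (-0.34 to -0.17), and BIRC5 (survivin), which sits in the same complex, at -0.27 (-0.34 to -0.20). The transcripts of the first 3 genes have a GC content of 40.8% to 43.2%, and those of the last 3 of 52.2% to 57.3%.

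The mitotic cyclins with CDK1 and its activator CDC25C had a median of -0.81, and all 5 were lower. Centred on GC content as described below, the median was -0.44. CDK1, the kinase that drives mitotic entry, had 54.8 CPM in sc, 69.1 in shDCBLD2, 60.03 in the vector control and 25.2 in the library labelled OE, a log2 ratio of -1.25 (-1.42 to -1.09). Its partners CCNA2, CCNB1 and CCNB2 were between -0.90 and -0.71, each lower in this library than in the other 3. CDC25C was at -0.29 (-0.52 to -0.07), with 287 counts against 391. The nucleotide supply and clamp genes were all lower too, with a median of -0.77. RRM1, the large subunit of ribonucleotide reductase, was at -1.21 (-1.34 to -1.09), and PCNA at -0.78 (-0.84 to -0.72), with 356 CPM in sc, 427 in shDCBLD2, 376 in the vector control and 219 in the library labelled OE. TYMS, which makes the thymidine nucleotide, was the highest of this group at -0.51.

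The licensing and helicase genes did not move together in this comparison, although the MCM2 to MCM7 proteins form 1 ring. MCM6 was 2-fold lower, at 52.0 CPM against 108 in the vector control and a log2 ratio of -1.05 (-1.17 to -0.94). MCM3 was at -0.02 with an interval across 0, MCM4, MCM5 and MCM7 were between -0.26 and -0.20, and MCM2 was higher, at 288 CPM against 214, a log2 ratio of 0.43 (0.37 to 0.49). Among the loaders, CDC6 was at -0.89 (-1.05 to -0.73) and CDT1 at 0.22 (0.13 to 0.30). The 10 genes had a median of -0.25. The transcripts of MCM6 and CDC6 have a GC content of 43.1% and 45.5%, and those of MCM2 and CDT1 of 58.1% and 64.9%. Centred on GC content as described below, MCM6 was at -0.60, MCM7 at -0.51 and MCM5 at -0.46. On that scale MCM4 was at -0.15, MCM3 at -0.10 and MCM2 at 0.17. CDC6 was at -0.63 and CDT1 at -0.08, the latter with its sign turned.

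The 4 regulators of S phase entry went different ways, with a median of 0.09, and the late transcription factors had a median of -0.10, turning to 0.0212 with upper-quartile scaling. E2F1 had 76.98 CPM in sc, 86.97 in shDCBLD2, 82.3 in the vector control and 79.7 in the library labelled OE, a log2 ratio of -0.05 (-0.15 to 0.06). MYBL2 was at 0.05 (-0.01 to 0.11) and FOXM1 at -0.25 (-0.35 to -0.15). These 3 transcripts have a GC content of 55.6% to 62.5%, and centred on GC content as described below their ratios were -0.33 for E2F1, -0.24 for MYBL2, with its sign turned, and -0.43 for FOXM1. CCNE2 had 24 counts in the vector control and 12 in the library labelled OE, and its interval, -1.98 to 0.21, spans no change.

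CDC25A was the 1 member that was higher at 2-fold. It encodes the phosphatase that releases cyclin-dependent kinases at S phase entry. It had 350 counts in sc, 465 in shDCBLD2, 245 in the vector control and 817 in the library labelled OE, or 17.9, 21.6, 13.3 and 49.5 CPM. It was 3.69-fold higher in the last library than in the vector control, a log2 ratio of 1.88 (1.68 to 2.10), and the other 3 libraries all lay below it. Its entry overlaps 3 entries on the other strand.

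**Figure D2:**
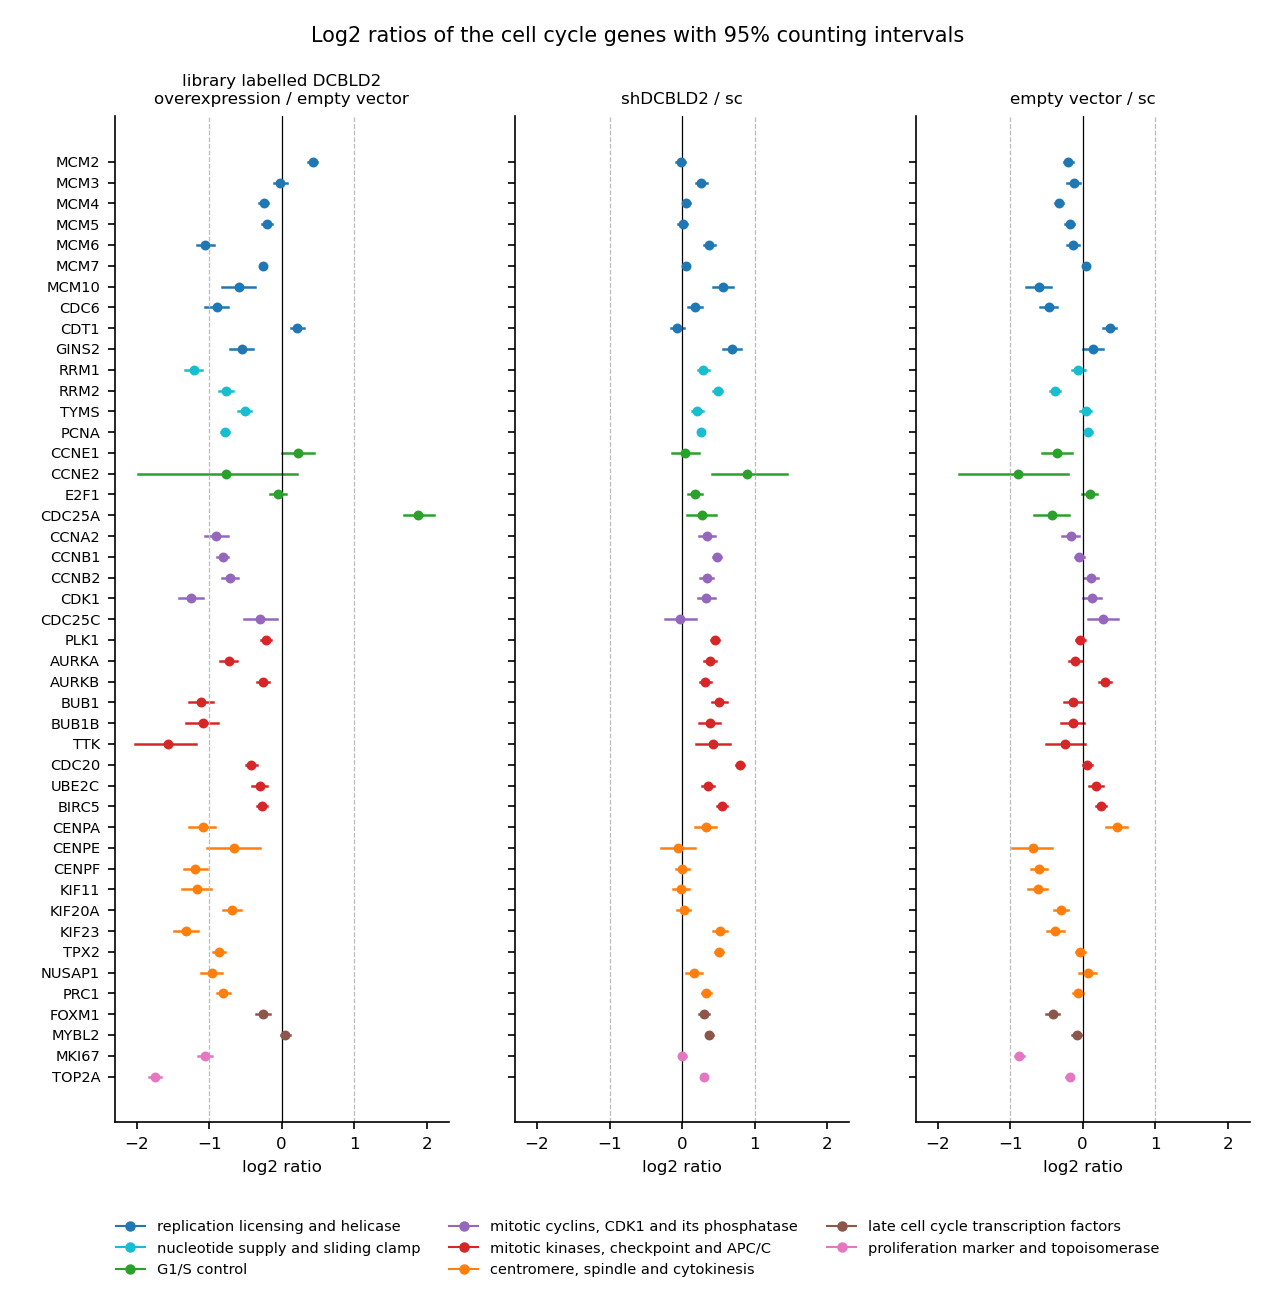
Log2 ratios (horizontal axis) of the 45 genes in the 3 comparisons, with 95% counting intervals as bars, dashed lines at 2-fold and colours for the 8 roles. On the left 12 genes lie past 2-fold lower and CDC25A past 2-fold higher; in the other panels no gene passed 2-fold.

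The ratios between the library labelled OE and the vector control moved with the base composition of the transcripts. Over the 12354 protein-coding genes with a GENCODE 29 transcript, Spearman's rho between GC content and log2 ratio was 0.59, and over the 45 members it was 0.83. These points share their libraries, and genes are not independent replicates. From the lowest to the highest decile of GC content the median log2 ratio of all genes went from -0.63 to 0.30. The members' median GC content was 46.8%, against 49.5% for all these genes. Of the 29 members at or under that median, 86.2% were lower at 1.5-fold, against 33.0% of all genes there, and of the 16 members above it 0 were, against 3.14% of all genes there. The 25 members lower at 1.5-fold had a GC content of 35.3% to 48.4%.

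With the median of all genes in the same decile of GC content subtracted, the members' median was -0.51 instead of -0.71, and 42 of the 45 were lower, against 50% of all genes. At 2-fold only TOP2A, at -1.22, and TTK, at -1.04, were then still counted as lower, 2 members against 1.63% of all genes. At 1.5-fold 17 members were lower, against 7.26% of all genes. The mitotic genes of high GC content then lay further down: PLK1 was at -0.47 and CDC20 at -0.67, and the median of the kinase and checkpoint group moved from -0.42 to -0.63. In the centromere and spindle group all 9 were still lower. However, CENPE at -0.03, NUSAP1 at -0.51, KIF11 at -0.54 and, just short of it, KIF20A at -0.5845 no longer reached 1.5-fold. CDC25A stayed higher, at 1.80. MCM2 was at 0.17 and CDT1 at -0.08 on this scale. What gave rise to the relation with GC content was not tested.

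**Figure D3:**
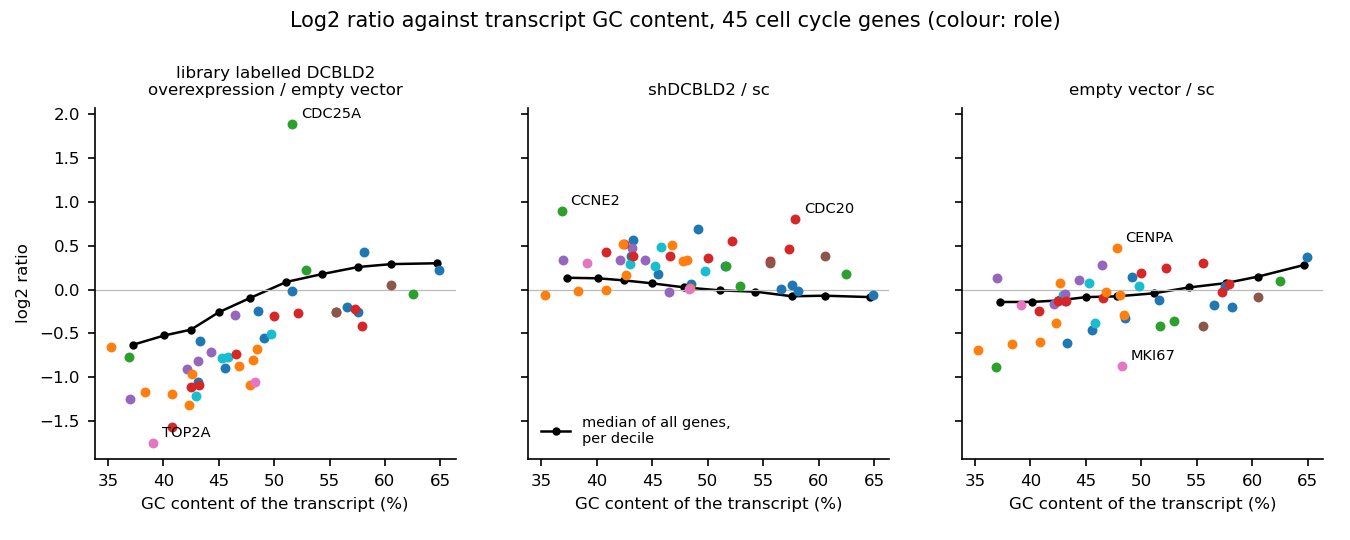
Log2 ratio (vertical axis) against the GC content of the longest protein-coding transcript in percent (horizontal axis) in the 3 comparisons, with coloured points for the 45 genes by role and a black line for the median of all genes in each decile of GC content. In the left panel the line runs from -0.63 to 0.30 and most members lie below it, with CDC25A far above; in the middle panel most members lie above the line.

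In shDCBLD2 the cell cycle genes were higher than in sc, by small amounts. Of the 45, 39 were higher, against 50.9% of all genes past the filter, with a median log2 ratio of 0.32 against 0.01 over all genes. The counting interval lay above no change for 35 members and below it for 0. Among all 13966 genes past the filter it lay above for 4165 and below for 3790. No member was called at 2-fold in either direction, where 1.16% of all genes were higher and 5.62% lower. At 1.5-fold, 3 members were higher, against 4.93% of all genes, and 0 were lower, against 11.6%. The shift was thus one of many genes by a little and not of a few by much.

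The 3 members past 1.5-fold came from different steps. CDC20 is the activator of the anaphase-promoting complex. It had 210 CPM in sc, 365 in shDCBLD2, 220 in the vector control and 164 in the library labelled OE. Its log2 ratio of shDCBLD2 to sc was 0.80 (0.75 to 0.86), and shDCBLD2 stood alone above the other 3 libraries. GINS2 is a subunit of the replicative helicase. It had 44.8 CPM in sc, 72.1 in shDCBLD2, 49.5 in the vector control and 33.7 in the library labelled OE. Its ratio of shDCBLD2 to sc was 0.69 (0.57 to 0.81). CCNE2 had the largest ratio, 0.89 (0.41 to 1.44), from 49 and 102 counts, the lowest depth of any member.

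In the kinase and checkpoint group all 9 genes were higher, from AURKB at 0.32 to CDC20 at 0.80, with a median of 0.42. PLK1 had 238 CPM in sc and 327 in shDCBLD2, a log2 ratio of 0.46 (0.40 to 0.51), and BIRC5 was at 0.55 (0.49 to 0.61). The summed level of the group was 1050 CPM in sc, 1503 in shDCBLD2, 1110 in the vector control and 848 in the library labelled OE. The mitotic cyclin group had a median of 0.34, with CCNB1 at 0.47 (0.42 to 0.53) and CDC25C at -0.02. Both late transcription factors were higher, MYBL2 at 0.38 (0.32 to 0.43) and FOXM1 at 0.30 (0.23 to 0.38).

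The replication genes were less uniform. All 4 nucleotide supply and clamp genes were higher, RRM2, the regulated subunit of ribonucleotide reductase, at 0.49 (0.43 to 0.55) and PCNA at 0.26 (0.22 to 0.31). Of the licensing genes, MCM10, which helps to fire the loaded helicase, was at 0.56 (0.43 to 0.70) and MCM6 at 0.38 (0.30 to 0.45), whereas MCM2, MCM4, MCM5, MCM7 and CDT1 lay between -0.07 and 0.06. E2F1 was at 0.18 (0.08 to 0.27).

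Several genes that are commonly read as proliferation markers did not follow. MKI67 had 5483 counts in sc and 6059 in shDCBLD2, a log2 ratio of 0.00 (-0.05 to 0.06), and CENPF was at 0.00 (-0.09 to 0.09). KIF11 was at -0.02, KIF20A at 0.02 and CENPE at -0.06, each with an interval across 0, whereas KIF23 and TPX2 of the same group were at 0.52 and 0.50. TOP2A lay between them at 0.30 (0.26 to 0.35). The centromere and spindle group was therefore divided in this comparison, with ratios from -0.06 to 0.52.

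GC content moved little with these ratios, with a rho of -0.15 over the members and -0.21 over all genes, and after the same subtraction the median was 0.27 with 39 of 45 still higher. The summed level of the A549-like epithelial markers was lower in shDCBLD2, 17088 CPM against 26332 in sc, and all 10 of these markers were lower there. Its part in the result was not tested. Against the vector control in place of sc, the members' median in shDCBLD2 was 0.48, with 2 members higher at 2-fold, against 2.23% of all genes.

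Both control libraries were compared to show how far lines of the same cells, carrying different control vectors, lay apart. Of the 45 genes, 30 were lower in the vector control than in sc, against 50.8% of all genes, with a median of -0.12 against -0.01. No member was called at 2-fold, where 2.22% of all genes were higher and 1.89% lower. At 1.5-fold, 6 members were lower, against 6.67% of all genes: CCNE2 at -0.89, MKI67 at -0.87, CENPE at -0.69, KIF11 at -0.62, MCM10 at -0.61 and CENPF at -0.60. None was higher at 1.5-fold, against 7.07% of all genes, and the highest ratios were those of CENPA at 0.47, CDT1 at 0.37 and AURKB at 0.31. For MKI67, CENPE, CENPF and KIF11 the step between the controls was thus larger than the step between shDCBLD2 and sc.

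The ratios between the controls moved with the length of the genes. Over all genes past the filter, rho between the deposited exonic gene size and the log2 ratio was -0.36, and over the 45 members it was -0.69. The median of all genes went from 0.24 in the decile with the shortest genes to -0.28 in that with the longest. MKI67, at 12807 bases, and CENPF, at 11663, are the longest members and CENPA, at 1983 bases, is among the shorter ones. With the median of the same decile of size subtracted, 2 members in place of 6 were lower at 1.5-fold, against 5.51% of all genes, and MKI67 was at -0.59. For the library labelled OE against the vector control, rho with size was -0.24 over the members. What gave rise to the relation with length was not tested.

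**Figure D4:**
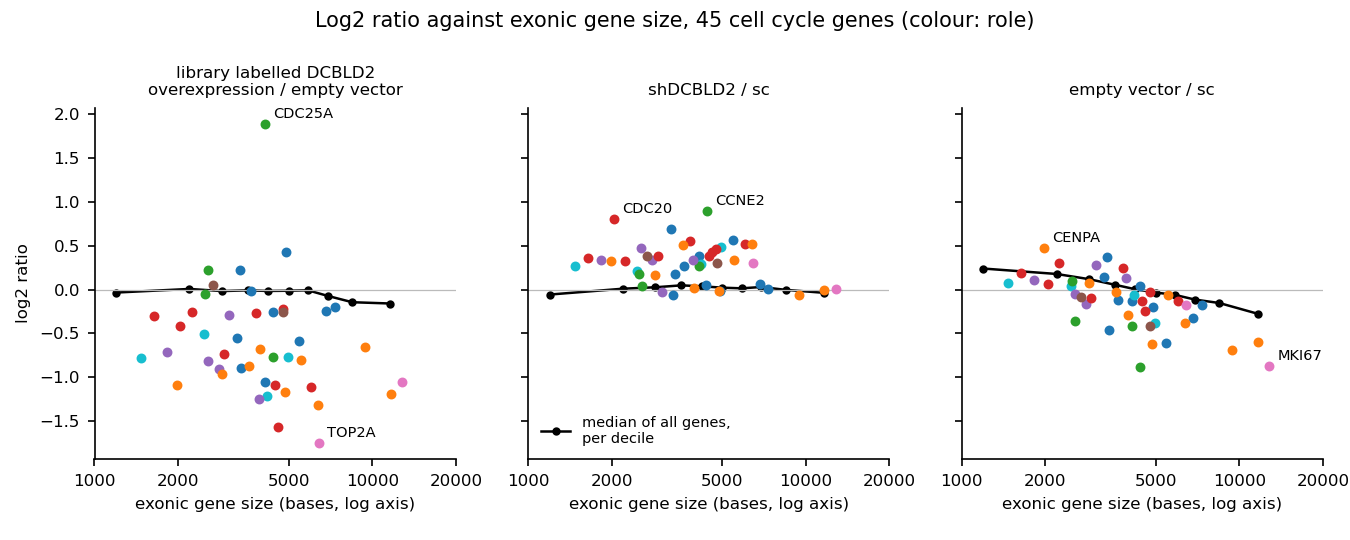
Log2 ratio (vertical axis) against the deposited exonic gene size in bases (horizontal log axis) in the 3 comparisons, with coloured points for the 45 genes by role and a black line for the median of all genes in each decile of size. In the right panel the line falls from 0.24 to -0.28 and the members fall with it, with MKI67 at the lower right end.

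Placed side by side, 36 of the 45 genes (80.0%) were lower in the library labelled OE than in the vector control and higher in shDCBLD2 than in sc, as were 31.99% of all genes. These comparisons have no library in common. DCBLD2 RNA, given above, was lower in both of the libraries compared with their controls, with log2 ratios of -0.84 and -1.35, while the members' medians had opposite signs, -0.71 and 0.32. The promoter elements shown above were also set beside the ratios. The 16 genes with a CHR element in the spellings searched had a median of -1.09 in the library labelled OE, and the 20 without had -0.40. Their median transcript GC contents were 43.0% and 49.4%, so that promoter element and GC content cannot be told apart here. In shDCBLD2 the medians were 0.33 with and 0.24 without a CHR element. With and without an E2F element they were -0.55 and -0.77 in the library labelled OE, with median GC contents of 47.8% and 44.3%. The ratio medians of these sets in shDCBLD2 were 0.26 and 0.34. The 28 genes with a CCAAT and the 8 without had medians of -0.81 and -0.12 in the library labelled OE, with median GC contents of 45.4% and 51.3%, and of 0.32 and 0.01 in shDCBLD2.

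Other genes of the same processes were described from 5 lists of 145 genes in all, none of them members. Of 57 further genes of mitosis, the kinetochore and condensin, 54 were lower in the library labelled OE, 22 of them at 2-fold, with a median of -0.76. Of all genes, 52.9% were lower there and 5.35% at 2-fold. The lowest were CENPK, a kinetochore subunit, at -1.88 (-2.32 to -1.51) and SMC2, a condensin subunit, at -1.72 (-1.97 to -1.49). The highest was ESPL1, the separase that frees sister chromatids, at 0.24 (0.12 to 0.36). Their transcripts have GC contents of 32.9%, 37.6% and 57.0%, in that order. Centred on GC content, the median of this list was -0.52. In shDCBLD2 52 of the 57 were higher (50.9% of all genes), 3 of them at 1.5-fold (4.93% of all genes), with a median of 0.30, ANLN, a scaffold of the cleavage furrow, being furthest up at 0.66 (0.57 to 0.75) and SPC24 furthest down at -0.50 (-0.66 to -0.34). Of 43 genes of the replication origin, fork and polymerases, 37 were lower in the library labelled OE, 5 at 2-fold, with a median of -0.51, from WDHD1 at -1.46 to RPA2 at 0.43. In shDCBLD2 36 of the 43 were higher, with a median of 0.20. These lists thus had medians of the same sign as the members in both comparisons.

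The pocket proteins, E2F factors and DREAM subunits, 17 genes, had smaller shifts, with medians of -0.26 and 0.11. E2F8, a repressor of the E2F family, was at -1.55 (-2.09 to -1.10), RBL1 at -1.24 (-1.63 to -0.90) and E2F3 at 0.43 (0.21 to 0.66) in the library labelled OE. The 16 DNA repair genes linked to E2F had medians of -0.63 and 0.20. Of them, 14 were lower in the library labelled OE, against 52.9% of all genes, and 14 higher in shDCBLD2, against 50.9%. Centred on GC content, their median in the library labelled OE was -0.16. The 12 inhibitors of cyclin-dependent kinases and brakes of G2 phase had no common direction. In the library labelled OE 6 were lower, against 52.9% of all genes, and 6 higher, with a median of -0.01. Of the 12, 8 were lower in shDCBLD2, against 49.1% of all genes, with a median of -0.19. CCNG2, an unusual cyclin of resting cells, had 152 counts in sc against 80 in shDCBLD2. That gave CCNG2 a ratio of -1.05 (-1.48 to -0.67) on the log2 scale. No other gene of the list was called lower at 2-fold in shDCBLD2, where 5.62% of all genes were. CDKN2D was at -0.85 (-1.27 to -0.47) and GADD45A, a stress-induced inhibitor, at 0.75 (0.57 to 0.94) in shDCBLD2. CDKN3, a phosphatase that is itself made in mitosis, was at -1.22 (-1.43 to -1.02) in the library labelled OE. It was the 1 gene of the 12 lower at 2-fold in that library, against 5.35% of all genes.

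Some members share their position with other entries of the count table, and whether counting used the strand is not given in the sources used here. Of the 45 genes, 24 overlap another entry, among them MCM7, whose gene holds the microRNAs MIR25, MIR93 and MIR106B, TYMS with ENOSF1, and CCNE2 and FOXM1, which overlap 4 and 3 entries. Reads of such pairs may be split or shared. For the 21 members without an overlap, the median in the library labelled OE was -0.59.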

How the data were processed

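RNA from A549 cells in 4 conditions, 1 library each, was sequenced after poly(A) selection, per the labels. The authors deposited raw read counts per gene, which all ratios use, and FPKM values with exonic gene sizes, which served to compare levels between genes and to group genes by size. The aligner, the counting program and the use of strand are not given in the sources used here. The submitters' processing notes name the mouse build mm9 although the genes are human, so no deposited coordinate was carried to another build. No sample column was left unmapped (0 columns). A copy of each library's counts and FPKM in a file of its own held identical values and was not used.

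Counts were scaled with TMM factors (edgeR 4.0.16, R 4.3.3) between 0.981 and 1.02. A prior count of 2 was added before taking log2 ratios. Exact 95% limits (Clopper-Pearson) were computed from the split of each pair of counts. Scripts in Python 3.11.15 (scipy 1.17.1, numpy 2.4.6, pandas 2.3.3; figures in matplotlib 3.10.9) were tested on simulated data. Totals of 16601633 to 21537283 counts set the precision, and members had between 12 and 13908 counts. Members were called at 2-fold (alternative 1.5-fold) with an interval that excludes no change, among genes whose mean CPM reached 1. Transcript GC content is that of the longest protein-coding transcript in GENCODE 29, and promoters are those of RefSeq on GRCh38.p14.

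The members, roles, lists and markers were chosen with earlier results of these data known. The rule for named genes covers the members called at 2-fold, the highest and lowest of each role group, MKI67, PCNA, TOP2A, E2F1, FOXM1 and MYBL2, the extremes in FPKM, and the 2 highest and 2 lowest genes of each other list. Not all of these are printed. Others were named after their values were seen.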

Additional observations from a re-analysis of the deposited data

How the results depend on the processing

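No paired analysis was possible because each condition has 1 library, and no replicate could be left out. The members' median stayed between -0.83 and -0.51 for the library labelled OE against the vector control, between 0.27 and 0.48 for shDCBLD2 against sc and between -0.19 and -0.04 for the vector control against sc under all alternatives run. DESeq2 size factors (DESeq2 1.42.0), prior counts of 0.5 and 5, no filter and a mean CPM of at least 5 changed no median, count or direction beyond its spread. Upper-quartile factors moved the median of all genes in the first comparison from -0.04 to 0.08, the members to -0.58, the licensing group to -0.13, the nucleotide group to -0.65, the kinase group to -0.29, the marker and topoisomerase pair to -1.28 and the late factors to 0.0212, with their sign turned, and left 7 members lower at 2-fold. Library totals and the deposited FPKM (pseudocount 0.1) put that pair, in the vector control against sc, at -0.59 in both cases. With counts drawn down to the smallest total, 1 member was lower at 2-fold in the vector control against sc. With the full counts 0 members were, against 1.89% of all genes. At 1.5-fold, 25 members were lower in the library labelled OE, 3 higher in shDCBLD2 and 6 lower with the vector control. Without overlapping members the first median was -0.59.

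With sc as control for the library labelled OE, the medians were -0.83 for the members, -0.39 for licensing, -0.92 for nucleotide supply, -0.35 for the late factors, -1.93 for marker and topoisomerase, -0.95 for the mitosis list and -0.94 for DNA repair. With the vector control as control for shDCBLD2 they were 0.48 for the members, 0.39 for licensing, 0.54 for S phase entry, 0.23 for the mitotic cyclins, 0.54 for centromere and spindle, 0.59 for the late factors, 0.68 for marker and topoisomerase, 0.39 for the fork list, 0.57 for DNA repair and -0.41 for the inhibitors, with 2 members higher at 2-fold.

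Centring on GC content or on gene size was chosen after seeing the data. Centred on GC content, the library labelled OE against the vector control gave -0.51 for the members, 2 of them lower at 2-fold, -0.56 for nucleotide supply, -0.44 for the mitotic cyclins, -0.63 for the kinases, -0.67 for centromere and spindle, -0.33 for the late factors, -1.09 for marker and topoisomerase, -0.52 for the mitosis list and -0.16 for DNA repair. In shDCBLD2 it gave 0.21 for nucleotide supply, 0.0626 for centromere and spindle and 0.0767 for marker and topoisomerase. In the vector control against sc it gave 0.0751 for nucleotide supply, with the sign turned, -0.33 for the late factors and -0.42 for marker and topoisomerase. Centred on size, that comparison gave -0.0671 for the mitotic cyclins, with the sign turned, -0.15 for nucleotide supply and -0.33 for marker and topoisomerase, and the first comparison gave -1.28 for the latter. The cause of these shifts was not tested. CCNE2, with 12 to 102 counts, is limited most by depth.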

Other observations

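CDC25A, the member that stood apart in the library labelled OE, was set beside its neighbours after its value was seen. Within 500 kb on the deposited coordinates, 20 other genes passed the filter. Of these, 17 were higher in that library than in the vector control, against 47.1% of all genes, with a median log2 ratio of 0.50 and a range of -0.24 to 1.49. After subtraction of the median of all genes in the same decile of GC content, 14 of the 19 neighbours with a GC value were higher, against 50% of all genes, with a median of 0.41. The ratio of CDC25A was above that of each neighbour.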
